A study of Mus musculus with 48 samples.

Results

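Female and male WT livers were compared gene by gene, to describe how far the sexes differ in this organ before any mutation is considered. The 11 libraries, 6 female and 5 male, came from C57BL/6J mice at 4 months of age that were housed with food ad libitum and carried no edited allele. The paper reports a morning fast for the livers in its protein blots. It does not say whether the mice of these RNA libraries were fasted. They were bred in a colony in which CRISPR-Cas9 had introduced the IGF-1R R1096C substitution, from founders backcrossed for 2 generations and then intercrossed, and they belong to a series of 48 libraries that also holds heterozygous livers (Het, 1 copy of R1096C, same strain, age and housing) and gastrocnemius muscle of both genotypes. Polyadenylated RNA was sequenced, and reads were counted per gene on GRCm39. A sixth male WT library, replicate 5, was left out because it held 154941 CPM of skeletal muscle marker genes, against 0.284 to 1.72 CPM in the 11 libraries used, and 113 CPM of hepatocyte markers, against 110112 to 145306. CPM are counts scaled to library size with TMM normalization, which limits the pull of a few very abundant transcripts, except for summed marker levels, Xist and Y-linked genes, which are given without TMM scaling.

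Sex differences in rodent liver are set largely by growth hormone. The pituitary of adult males releases it in pulses separated by near-empty intervals and that of females more continuously, and hepatocytes read the pattern through the growth hormone receptor, JAK2 and STAT5b. Downstream lie repressors that differ between the sexes, such as BCL6 and CUX2, and families of enzymes and secreted proteins: cytochromes P450 and sulfotransferases that modify steroids, drugs and bile acids, and major urinary proteins (MUPs), which carry pheromones into the urine.

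Of 57010 genes in the table, 18241 passed the count filter in liver, and 17578 of these are autosomal. Under the edgeR quasi-likelihood test 1979 autosomal genes were called at an adjusted p of 0.05, or 11.3% of those tested. Levels of 1142 genes (6.5%) were higher in females and those of 837 (4.76%) in males. All female values lay above or below all male values for 1507 autosomal genes (8.57%), 1286 of them among the calls. Of the calls 988 differed by under 1 on the log2 scale and 991 by 1 or more, and 57 genes higher in females and 58 higher in males differed by at least 5. They comprised 1806 protein-coding genes and 119 lncRNAs. Each autosome held between 8.90% and 13.5% of called genes among those tested, with the highest share on chromosome 19. On chromosome 4, where the Mup cluster lies, 87 of 144 calls were higher in males. On the X chromosome 65 of 536 tested genes were called, 45 of them higher in females.

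Reads on genes numbered 31332364 to 56312866 per library with overlapping ranges in the sexes (exact permutation test, two-sided, p = 1). Xist stood at 604 to 771 CPM in the libraries labelled female and at no more than 1.08 CPM in those labelled male, and the summed level of 4 Y-linked genes at no more than 1.35 CPM in females and at 139 to 193 CPM in males. Female replicate 6 stood apart. Its mean correlation with the other female libraries was 0.932, against 0.953 to 0.959 for the others, and without it the number of calls was 2350. The library number of female replicate 3 also appears in muscle under a male Het label, although the liver library has the Xist level of a female. The labels do not say how the animals were assigned to litters or days, so p-values measure the spread between these libraries.

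Short stretches of promoter are shown first, because several of the genes with the largest differences share a short word in them. Each window comes from the bases before the annotated start site, and the capitals mark ATCAAT or its reverse complement ATTGAT, the core word of the ONECUT (HNF6) transcription factors, which are hepatocyte regulators. All are read 5′ to 3′ on the strand of the gene, on GRCm39. Mup7, Mup20 and Serpina1e were higher in males, and Cyp3a41a, Slc22a26 and Sult3a1 in females.
Mup7, chr4:60070522-60070587 (- strand), word 76 to 71 bases before the start site: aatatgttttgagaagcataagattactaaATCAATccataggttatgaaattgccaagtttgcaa
Mup20, chr4:61972475-61972540 (- strand), word 115 to 110 bases before the start site: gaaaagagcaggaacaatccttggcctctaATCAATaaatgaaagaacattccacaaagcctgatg
Serpina1e, chr12:103923318-103923383 (- strand), word 174 to 169 bases before the start site: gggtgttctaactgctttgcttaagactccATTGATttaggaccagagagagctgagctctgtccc
Cyp3a41a, chr5:145656982-145657047 (- strand), word 71 to 66 bases before the start site: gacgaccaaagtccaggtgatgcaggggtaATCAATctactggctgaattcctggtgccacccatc
Slc22a26, chr19:7780056-7780120 (- strand), word 35 to 30 bases before the start site: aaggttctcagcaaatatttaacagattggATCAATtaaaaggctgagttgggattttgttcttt
Sult3a1, chr10:33733614-33733679 (+ strand), word 63 to 58 bases before the start site: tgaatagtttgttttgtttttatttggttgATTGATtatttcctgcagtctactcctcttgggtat

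Among 13599 autosomal protein-coding genes tested, 4.86% had this word on either strand in the 250 bases before the start site. Among genes that differed by at least 3 on the log2 scale it stood in 20 of 79 promoters higher in males (25.3%) and in 12 of 70 higher in females (17.1%). The 20 include 11 Mup promoters, which are copies of each other, and 9 others. The C/EBP word TTGCNNAA (N stands for any base) was found in 8.38% of all promoters, in 12.7% of the male group and in 18.6% of the female group, the latter including Cyp2b9, Cyp2b13, Cyp2a4 and 3 Sult2a genes. A STAT word, TTCNNNGAA, was found in 6.76%, 2.53% and 8.57%. The HNF4A word CAAAGTCCA was rarer, at 0.412%, 2.53% and 7.14%, and the 5 female promoters with it were those of Cyp2c40, Cyp2c69, Cyp3a16, Cyp3a41a and Cyp3a41b. Neighbouring paralogs share promoter sequence by descent, so these counts describe letters in the windows and were not tested.

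The P450 enzymes held many of the largest differences, in both directions. Cyp4a12a (chr4:115156243-115190012), a fatty acid omega-hydroxylase, was at 450, 523, 241, 471 and 481 CPM in the male livers (replicates 1, 2, 3, 4 and 6, the order used for male values throughout). The female values ran from 0 to 1.24 CPM with a median of 0.668. The sexes did not overlap, and the log2 fold change, female over male as in all values that follow, was -9.52 ± 0.58 (SE; edgeR adjusted p = 1.33e-08). Its neighbour Cyp4a12b differed by -8.88 ± 0.56, and 36.2% of the 100-base stretches of its transcript also occur in Cyp4a12a, so the split of reads between these genes is uncertain. In the same subfamily Cyp4a14 was higher in females, at 1192 to 3321 CPM (median 2403) against 98.4, 1015, 470.2, 468 and 672.9 CPM in males, a log2 difference of 2.14 ± 0.41 (edgeR adjusted p = 0.00259).

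Cyp2d9 (chr15:82317638-82341046), a testosterone hydroxylase, was at 2091, 1844, 1153, 1877 and 1495 CPM in males and at 8.03 to 33 CPM (median 21.6) in females. The difference was -6.23 ± 0.31 (edgeR adjusted p = 1.32e-09), and Cyp2d12 went the same way, at -4.01. The other 7 tested Cyp2d genes did not pass the test (without female replicate 6, 4 Cyp2d genes were called higher in males), with differences from -1.74 to 0.26.

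Cyp2a4 (chr7:26006594-26014513), also a testosterone hydroxylase, was the reverse. Females had 1223 to 2357 CPM (median 1629), and males 5.95, 26.8, 4.84, 5.35 and 5.31 CPM. Male replicate 2 lay above the other males and yet far under every female, and the difference was 7.50 ± 0.53 (edgeR adjusted p = 7.24e-08). Cyp2a5, which shares 11.2% of the 100-base stretches of Cyp2a4, was at 1191 to 2169.7 CPM in females and at 930.0, 3518, 434, 849.5 and 1252 CPM in males, with the same male replicate highest. Its ranges overlapped and it did not pass the test (0.31 ± 0.37, edgeR adjusted p = 0.701).

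All 3 tested Cyp2b genes were higher in females, beside 6.5% of all autosomal genes. For Cyp2b9 the females had 484 to 794 CPM (median 624.7) and the males 2.60, 0.604, 1.10, 0.557 and 0.0632 CPM, and the difference was 9.36 ± 0.53 (edgeR adjusted p = 5e-09). Cyp2b13 had 28 reads in all 5 male libraries together and 34.5 to 482 CPM in females. Cyp2b10, the member known as the target of the xenobiotic receptor CAR, was also higher in females, by 4.26.

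Cyp2c69 had the smallest adjusted p of all named genes (1.22e-11, edgeR). Female livers had 754 to 1477 CPM (median 1087) and male livers 2.26, 4.49, 3.74, 2.43 and 2.50 CPM. Of 13 tested Cyp2c genes 6 were higher in females and 1 in males, beside 6.5% and 4.76% of all autosomal genes. Cyp2c67 was the only one higher in males, at 291 against 150 CPM. Cyp2c69 and Cyp2c40 share 29.5% of the stretches of Cyp2c69, so the counts of this pair carry the same uncertainty. Cyp2c29, Cyp2c50, Cyp2c54 and 3 more did not pass the test.

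Of 9 tested Cyp3a genes 4 were higher in females and 1 in males, beside 6.5% and 4.76% of all autosomal genes. The 4 differed by 6.17 to 9.54 on the log2 scale. Cyp3a25 was higher in males by 0.42 in size, a call lost in 4 of 11 omissions of 1 library. Cyp3a41a ranged from 57.9 to 847 CPM in females (median 207) and from 0.219 to 0.733 CPM in males, and its near copy Cyp3a41b, with which it shares 88.4% of its stretches, differed by 9.54 ± 1.25. Cyp3a11, the main drug-metabolizing member in mice, did not pass. Of all 64 tested genes of P450 families 2, 3 and 4, a list drawn up after values were seen, 18 were higher in females and 10 in males. Over all autosomal genes these shares were 6.5% and 4.76%. No call came from 4 Cyp2j genes, with 0 at an unadjusted p under 0.05 and 0 with DESeq2. Cyp4f had 0 of 7 under edgeR, with 2 at an unadjusted p under 0.05 and 1 call with DESeq2. The median difference over the 64 was -0.06, next to 0.02 over all autosomal genes.

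**Figure D1:**
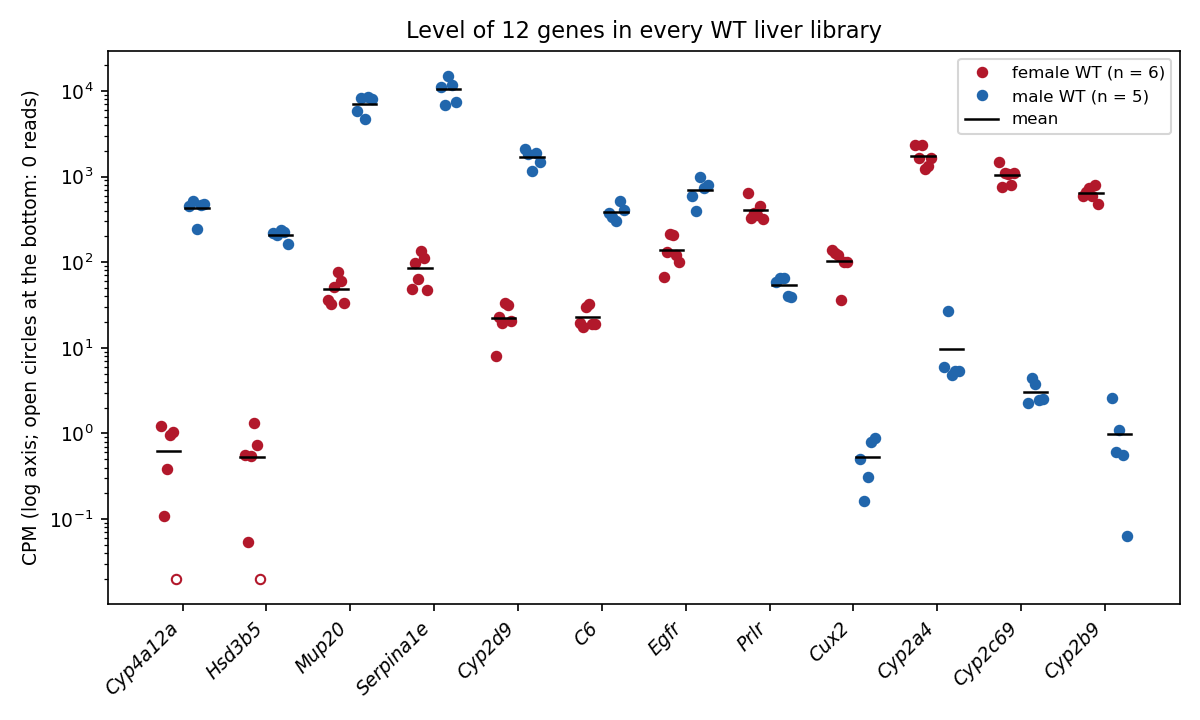
CPM of 12 genes in each WT liver library on a log axis, with 6 female (red) and 5 male (blue) points and a black bar at the mean of each sex. The genes were chosen with their values known, several by a rule that asks for no overlap of the sexes. That the sexes do not overlap in them therefore follows from the choice. Over all autosomal genes 8.57% had no overlap. Cyp4a12a and Hsd3b5 each have 1 female library with 0 reads, drawn as open circles.

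Enzymes that convert steroids were called in both directions, 5 higher in males and 3 in females among 17 tested. Over all autosomal genes the shares were 4.76% and 6.5%. Hsd3b5 (chr3:98525941-98553068), a ketosteroid reductase of the male liver, was at 221, 205, 239, 225 and 162 CPM in males and at 0 to 1.33 CPM in females, a difference of -8.66 ± 0.53 (edgeR adjusted p = 1.41e-08). Cyp7b1, an oxysterol hydroxylase, was at 527, 457, 521, 665.5 and 433 CPM in males and 22.6 to 43.9 CPM in females, or -3.96 ± 0.16. Srd5a1, a steroid reductase that makes dihydrotestosterone, was higher in males by 1.78 on the log2 scale in size (36.5 against 126 CPM, female against male). Cyp17a1, which makes androgen precursors, was higher in females, at 82.7 to 477 CPM against 5.78 to 30.2 CPM.

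Sulfotransferases, which attach sulfate to steroids and bile acids, were called in 13 of 17 tested genes, beside 11.3% of all autosomal genes, and 12 of these were higher in females, beside 6.5%. Sult2a1 (chr7:13530171-13571337) had 58.4 to 839 CPM in females and 18 reads in all males together, and Sult2a2 had 103 to 693 CPM and 10 reads. Sult2a3 had 3.72 to 184 CPM in females and no read in any male library, which puts it at least 4311-fold higher in females when the male group is set to a floor of 3 reads. Sult3a1 differed by 10.40 ± 0.62 (edgeR adjusted p = 1.01e-08). The females varied widely among themselves in these genes, and the males did not approach them. Sult2a8, a bile acid sulfotransferase, was the exception and was higher in males, at 1154, 1049, 828.8, 997 and 909 CPM against 344 to 634 CPM.

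Of the flavin monooxygenases, which oxidize drugs and amines, Fmo1, Fmo2 and Fmo4 were higher in females. Fmo5 was higher in males, at 998 against 436 CPM. Among 23 glutathione S-transferases, 2 were higher in males and 5 in females, beside 4.76% and 6.5% of all autosomal genes. The 2 higher in males were Gstp1 (2096 against 198 CPM) and Gstp2 (60.7 against 3.42 CPM), which share 47.3% of the stretches of Gstp1. The 5 higher in females were the mu class Gstm2, the omega class Gsto1 and Gstt1, Gstt2 and Gstt3, the last by 1.41. Of 15 carboxylesterases 6 were higher in males, Ces3a and Ces3b among them, beside 4.76% of all autosomal genes. Ces1c was higher in females, and the number higher in females was 4 without male replicate 2 and 2 without female replicate 6. Among 19 glucuronosyltransferases 4 were higher in males, led by Ugt2b38 and Ugt2b1, and 3 in females, Ugt1a1, Ugt1a5 and Ugt1a9. The shares over all autosomal genes were 4.76% and 6.5%. The Ugt1a genes share their last exons, and 70.3% of the stretches of Ugt1a9 occur in another gene, so the place of a Ugt1a difference among them is uncertain.

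**Figure D2:**
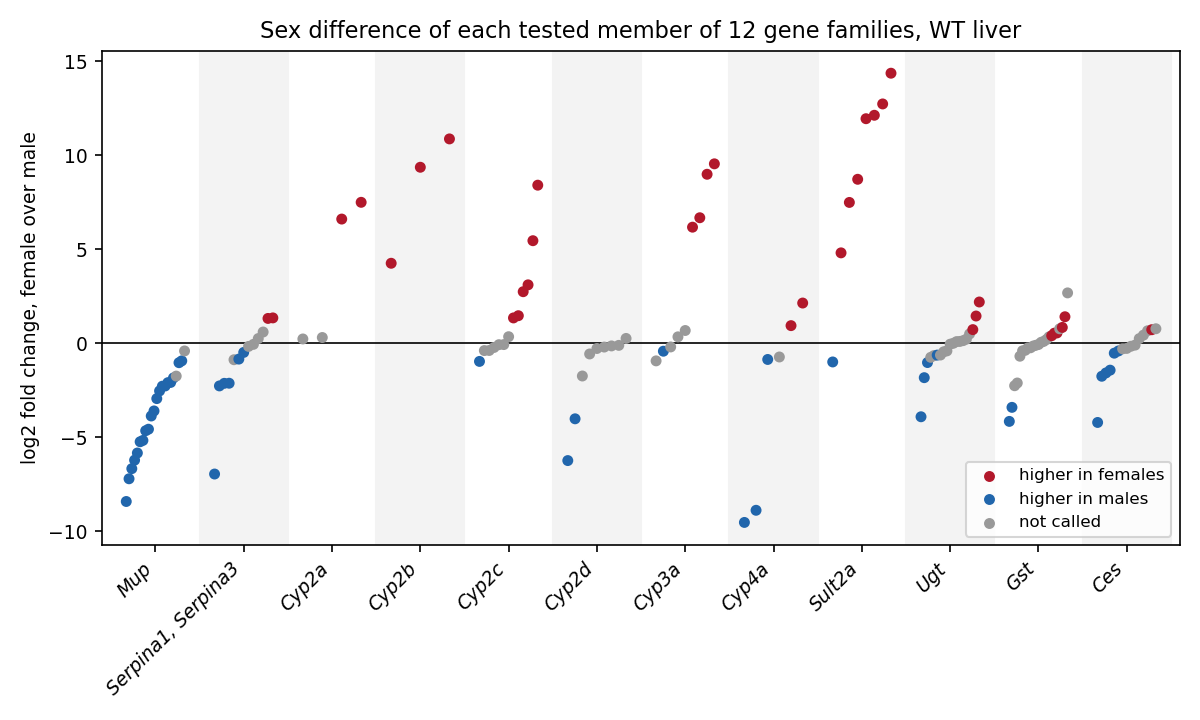
Log2 fold change, female over male, of each tested gene in 12 families, sorted within a family, in red where called higher in females, blue where called higher in males and grey where not called. All Mup genes lie under 0, while Cyp4a, Cyp2c, Cyp3a and Sult2a hold members on both sides.

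MUPs were higher in males in 20 of 22 tested genes, beside 4.76% of all autosomal genes, and no MUP was higher in females under edgeR (also 0 at an unadjusted p under 0.05 and 0 with DESeq2). Mup20 (chr4:61968464-61972395), also called darcin, was at 5889, 8258, 4736, 8598 and 8134 CPM in males and at 32.7 to 76 CPM (median 43.9) in females, a difference of -7.20 ± 0.28 (edgeR adjusted p = 6.45e-11). Mup3 was less unequal, with 10702, 8064, 7383, 8123 and 6703 CPM in males, 805 to 2771 CPM in females and a difference of -2.09 ± 0.25. The 2 MUPs that did not pass were Mup2 and Mup18. Between 0% (Mup4, Mup6) and 100% (Mup19) of the 100-base stretches of a MUP transcript recur in another gene, so that reads of Mup19, Mup2 or Mup14 can hardly be placed, while Mup3, Mup5 and Mup21 share 2.73%, 1.33% and 3.39%. Mup21 was at 306 against 8.51 CPM, Mup5 at 3.07 against 0.711 CPM. Together MUP genes took 1.69% ± 0.271 (SD, n = 5) of reads in males and 0.22% ± 0.072 (SD, n = 6) in females (exact permutation test, two-sided, p = 0.00433, the smallest that 6 against 5 libraries allow; adjusted over 7 measures, 0.0101).

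Serpina1e (chr12:103913187-103925234), a member of the alpha-1-antitrypsin cluster, was at 11072, 6878, 14963, 11849 and 7436 CPM in males and 47.8 to 136 CPM (median 81.1) in females. That is a difference of -6.95 ± 0.34 (edgeR adjusted p = 8.57e-10). Serpina3k, a kallikrein-binding inhibitor, was at 10115 to 16192 CPM in males and 2146 to 4755 CPM in females. In all, 8 of 16 serpins of these clusters were higher in males, beside 4.76% of all autosomal genes. Serpina3f and Serpina3g were higher in females, beside 6.5%. The Serpina1 and Serpina3 genes took 3.49% ± 0.626 (SD, n = 5) of male reads and 1.48% ± 0.136 (SD, n = 6) of female reads (exact permutation test, two-sided, p = 0.00433).

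Complement was called in 13 of 22 genes, beside 11.3% of all autosomal genes. Several genes of the terminal pore were higher in males. C6 was at 380, 334, 304, 515 and 404 CPM against 17.3 to 32.9 CPM in females (-4.08 ± 0.20, edgeR adjusted p = 8.57e-10). C8a, C8b and C9 differed by -2.58, -2.69 and -1.73, and Hc, which encodes C5, by -0.71. C4a differed by -3.84 and shares 16.5% of its stretches with C4b, which did not pass. Higher in females were C3 (0.59), the lectin Mbl2 (1.17) and the 3 chains C1qa, C1qb and C1qc (1.45, 1.39 and 1.41), which are made by macrophages. Of 8 tested markers of Kupffer cells and other macrophages, C1qa among them, 7 were higher in females, beside 6.5% of all autosomal genes. Csf1r differed by 1.75, Clec4f by 1.49 and Adgre1 by 2.05. The summed level of that list with the X-linked Vsig4 was 411 to 610 CPM in females and 118 to 263 CPM in males. Of 9 stellate and fibroblast markers 7 were higher in females, beside 6.5% of all autosomal genes, summing to 308 to 406 against 176 to 232 CPM. In Het livers, given below, only 1 macrophage and 1 stellate marker were higher in females. Of 12 hepatocyte markers 2 were higher in males, beside 4.76% of all autosomal genes, and 10 were not called. The number higher in males was 1 without male replicate 3 and 4 without male replicate 6. In whole liver, more cells of a type and more RNA per cell cannot be told apart, and the part of cell makeup in the other differences was not tested.

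Of 19 acute phase genes 3 were higher in females and 4 in males, beside 6.5% and 4.76% of all autosomal genes, and without male replicate 4 the number higher in males was 1. The 3 fibrinogen chains Fga, Fgb and Fgg were higher in males, by 0.78, 0.59 and 0.62 in size on the log2 scale, and Orm2, Orm3 and Hamp2, a paralog of the iron hormone hepcidin, were higher in females. Hamp2 was at 45.7 to 159 CPM in females and 0.663 to 5.32 CPM in males, while Hamp itself did not pass. Apoa1, the main protein of HDL, was higher in males, at 6119 against 3176 CPM.

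Of 21 tested genes of bile acid synthesis and transport 4 were higher in females and 7 in males, beside 6.5% and 4.76% of all autosomal genes. Cyp7a1, the rate-limiting enzyme of the classic route, was higher in females, at 83.5 to 425 CPM (median 217) against 108, 22.5, 116, 92 and 115 CPM, with a difference of 1.44 ± 0.42 and overlapping ranges (edgeR adjusted p = 0.0366). This call was lost when any 1 of 8 libraries was left out. Cyp7b1 and Cyp27a1 of the alternative route and Cyp8b1, which sets the share of cholic acid, were higher in males, by 3.96, 0.35 and 1.17 in size, and the Cyp27a1 call was lost in 5 of 11 omissions of 1 library. Cyp39a1, another oxysterol hydroxylase, was higher in females by 1.07 ± 0.21. Of the basolateral carriers, Slco1a1 was higher in males (425 to 559 against 2.62 to 73 CPM) and Slco1a4 in females (230 against 55.6 CPM). Slc10a1 and Abcb11, the main uptake and export pumps, did not pass.

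Of 16 fatty acid synthesis genes 2 were higher in females and 1 in males, beside 6.5% and 4.76% of all autosomal genes. Elovl3, which elongates saturated fatty acids, was at 102, 145, 178, 144 and 248 CPM in males and 1.75 to 7.30 CPM in females (-5.53 ± 0.38, edgeR adjusted p = 6.26e-08). The other fatty acid synthesis genes, Fasn, Acaca, Scd1 and Srebf1 among them, did not pass apart from Elovl5 (0.51, a call lost in 7 of 11 omissions) and Acacb (0.72), higher in females. Without female replicate 6, 4 genes of this list were higher in females. Of 30 genes of fatty acid uptake, storage and lipoproteins 4 were higher in females and 6 in males. The shares over all autosomal genes were 6.5% and 4.76%, and the list had a median difference of -0.30. Higher in females were Vldlr, a lipoprotein receptor, and Cd36, a fatty acid transporter. Vldlr was at 25.5 to 47.9 CPM in females and 0.199 to 1.57 CPM in males, and Cd36 at 175 against 58.1 CPM. Of 27 genes of fatty acid oxidation 6 were higher in females and 1 in males, beside 6.5% and 4.76% of all autosomal genes. The 6 include the peroxisomal thioesterase Acot3 (87 to 213 against 3.14 to 22.2 CPM) and the hydroxyacid oxidase Hao2 (9.80 to 94.9 CPM against 20 reads in all males). Of 20 cholesterol synthesis genes 0 passed the edgeR test and 0 DESeq2, with 3 at an unadjusted p under 0.05 in edgeR. Glucose metabolism had 2 calls among 16 genes, close to the 11.3% over all autosomal genes, with Gckr higher in females and Pck1 in males, the latter lost in 7 of 11 omissions. The urea cycle and amino acid list had 3 calls among 21, and its 2 calls higher in females fell to 0 in 5 of the omissions.

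**Figure D3:**
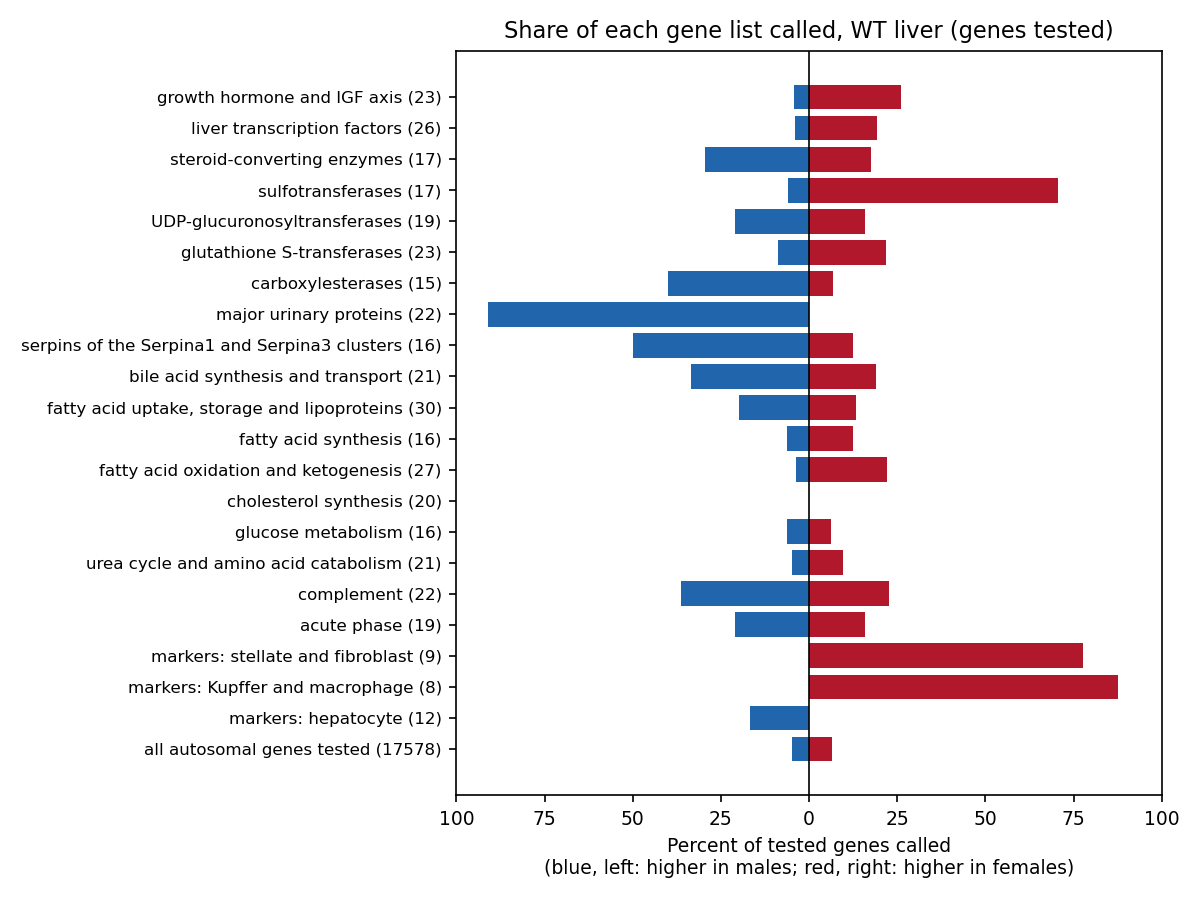
Percent of the tested genes of each list that were called higher in males (blue, to the left) or higher in females (red, to the right), with the number tested in brackets and all autosomal genes at the bottom. Major urinary proteins reach 20 of 22 to the left and sulfotransferases 12 of 17 to the right, and cholesterol synthesis has no bar.

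Growth hormone receptor, its transducer Stat5b and its target Igf1 did not pass the test. Ghr was at 350 to 716 CPM in females (median 454) and 650, 603, 460, 576 and 523 CPM in males. Igf1 was at 514 to 681 CPM in females (median 593) and 595, 501, 624, 663.3 and 446 CPM in males. Stat5b was at 48.9 to 72.3 and 49.1 to 66.1 CPM. The ranges overlapped in all 3 genes, whose differences were -0.21 ± 0.16, 0.06 ± 0.12 and 0.19 ± 0.12.

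Of 23 genes in that list 6 were higher in females and 1 in males, beside 6.5% and 4.76% of all autosomal genes. Prlr, the prolactin receptor, which also belongs to the cytokine receptors that signal through STAT5, was at 321 to 641 CPM in females (median 365) and 58.8, 65.8, 65.9, 40.5 and 39 CPM in males (2.93 ± 0.21, edgeR adjusted p = 1.04e-07). Igfals, the acid-labile subunit that holds circulating IGF-1 with Igfbp3, differed by 0.72 ± 0.10, Igfbp3 by 0.84, Stat5a by 0.62 and Igf1r by 0.97, though Igf1r was low in both sexes (4.25 and 2.18 CPM). Egfr, the epidermal growth factor receptor, was at 586, 400, 988, 732 and 797 CPM in males against 67 to 211 CPM in females, a difference of -2.33 ± 0.27.

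Socs2 and Cish, feedback inhibitors induced by STAT5, varied widely among males. For Socs2 the males had 5.75, 5.08, 38.1, 39.2 and 20.8 CPM and the females 24.3 to 61.6 CPM (median 39.7). For Cish the males had 6.76, 2.10, 1.73, 36.3 and 5.94 CPM and the females 6.30 to 28.8 CPM. Male replicate 4 was highest of the males in both genes, and neither gene passed (edgeR adjusted p = 0.238 and 0.730). Bcl6, the repressor known to be higher in males, was at 46.9, 41.5, 95.5, 18.9 and 24.1 CPM in males and 10.5 to 39.7 CPM in females, and did not pass either (-1.08 ± 0.41, edgeR adjusted p = 0.106). Onecut1 ranged from 1.59 to 36.8 CPM in males, with replicate 4 again highest, and from 1.72 to 33.6 CPM in females.

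Cux2 (chr5:121994429-122188521), a repressor of male-biased genes, had the largest difference among 26 liver transcription factors. Females had 36.4 to 138 CPM (median 111) and males 0.503, 0.161, 0.314, 0.796 and 0.884 CPM, with a difference of 7.63 ± 0.43 (edgeR adjusted p = 4.88e-09). Trim24, a corepressor of nuclear receptors, was at 75.7 to 128 against 24 to 44 CPM, and Tox, a high mobility group factor, at 12.5 to 20.2 against 2.40 to 6.75 CPM. Ppargc1a and the estrogen receptor Esr1 were also higher in females, by 0.68 and 1.25, and the Esr1 call was lost when any 1 of 8 libraries was left out. Nr0b2, known as SHP, was higher in males by 1.31 in size. In all, 5 of the 26 were higher in females and 1 in males, beside 6.5% and 4.76% of all autosomal genes. Hnf4a, Foxa1, Foxa2, Foxa3, Cebpa and Ppara were among the 20 that did not pass, with differences from -1.08 (Bcl6) to 0.77 (Nr1i3).

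**Figure D4:**
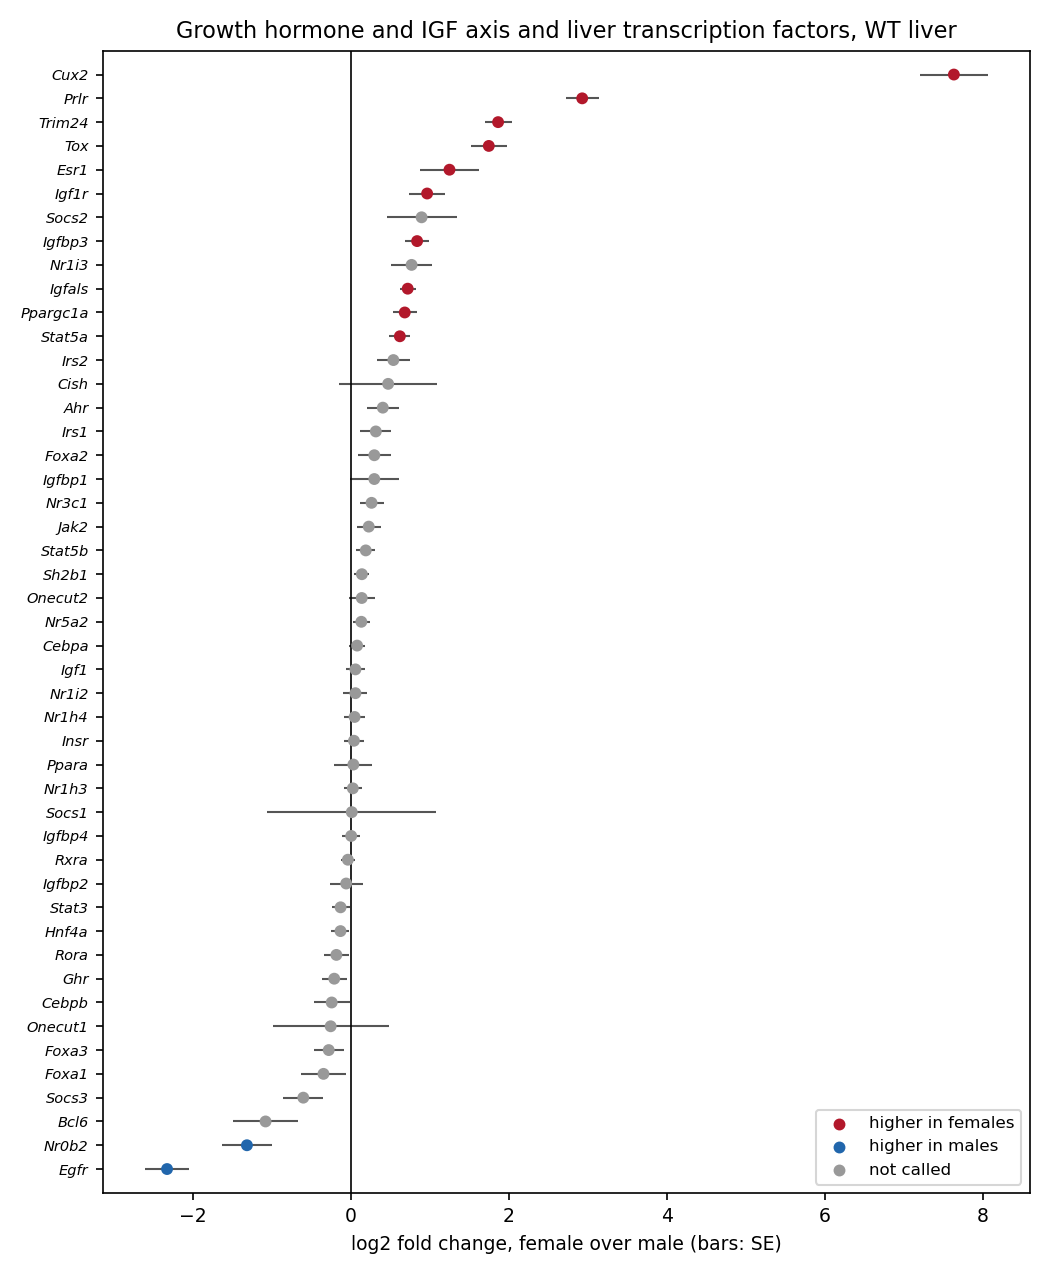
Log2 fold change, female over male, with SE, of 47 genes of the growth hormone and IGF axis and of the liver transcription factor list, colored as called higher in females (red), higher in males (blue) or not called (grey). Cux2 at 7.63 and Prlr at 2.93 lie far to the right, Egfr at -2.33 to the left, and Ghr, Igf1 and Stat5b near 0.

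Some of the most extreme folds rest on few reads in the lower sex. A1bg (chr15:60768708-60794861), a plasma glycoprotein gene, had 19 reads in all male livers and in females 3115, 79.9, 186, 40.6, 170 and 268 CPM. Replicate 1 set the female mean, and the log2 difference of 12.72 ± 1.56 was 10.61 without it. Slc22a26, an organic anion transporter of the kidney and liver, was more even, at 198 to 301 CPM in females and 0.119 to 0.782 CPM in males (9.08 ± 0.34, edgeR adjusted p = 5.57e-11). Slc22a27 went the same way by 7.54, and Slc22a28 and Slc22a30 were higher in males. Selenbp2, a selenium-binding protein, was at 1171, 348, 763, 1034 and 449 CPM in males and 5.94 to 17.2 CPM in females.

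Het livers of the same colony gave a second set of animals for the same contrast, with 5 female and 6 male libraries and none shared with the WT comparison. There 6707 autosomal genes were called (38.2%), 2834 higher in females and 3873 in males. Of the 1979 WT calls, 1094 were also called in Het, which is 55.3% of the WT calls and 16.3% of the Het calls, 1014 in the same direction and 80 in the opposite one. The share called in the same direction was 487 of 991 genes with a WT difference of at least 1 on the log2 scale, 151 of 223 at 3 or more and 91 of 115 at 5 or more (79.1%). Cyp4a12a differed by -9.14 in Het, Mup20 by -6.57, Cyp2d9 by -6.00, Cyp2a4 by 7.08 and Cyp2b9 by 9.82, each called by edgeR.

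The test of the difference itself, the sex by genotype term, was called for 4477 autosomal genes (25.5%) and for 570 of the WT calls (28.8%). Among 145 named genes it was called for 49. The female-biased A1bg, Sult2a2, Cyp3a41a, Cyp2c69 and Hao2 had smaller differences in Het, Cux2 a larger one (9.53), and Gstp2 went from -4.15 to -1.26. Most of these genes were named for large differences in the WT libraries, which this term also uses. How far that choice makes the Het differences look smaller was not tested. Adgre1 turned from 2.05 to -1.84, and C1qa from 1.45 to -0.26, not called in Het. Of 8 macrophage markers 1 was higher in females and 1 in males in Het, with a median difference of 0.026. Of 9 stellate and fibroblast markers 1 was higher in females and 0 in males, with a median of 0.0003. Over all autosomal genes 38.2% were called in Het. The sex by genotype term was called for 6 of the macrophage and 3 of the stellate markers, beside 25.5% of all autosomal genes. The female Het libraries had 15372 to 16538 genes with a read, against 18010 to 21346 in female WT, and 7.31% to 16.6% of reads on mitochondrially encoded genes, against 2.41% to 4.94%. The part of these library differences in the Het values was not tested.

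**Figure D5:**
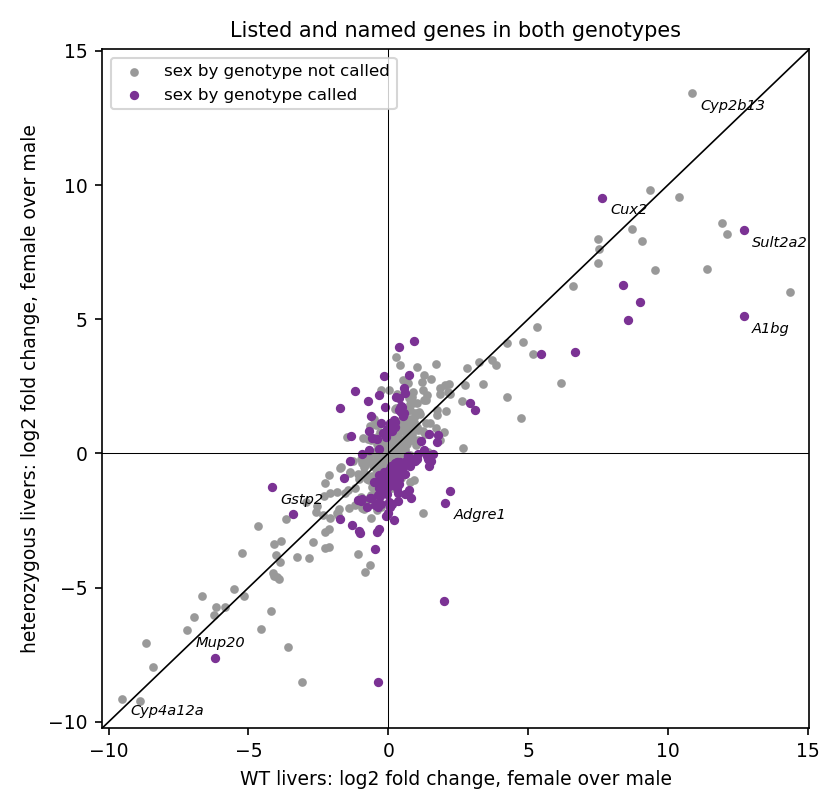
Log2 fold change, female over male, of 565 listed or named autosomal genes in WT livers (x axis) and Het livers (y axis), with the line of equal values and with genes called for sex by genotype in purple. Mup20 and Cyp4a12a lie near the line, while A1bg, at 12.72 and 5.11, lies far under it.

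In WT gastrocnemius the same contrast called 2159 of 17626 tested autosomal genes (12.2%). Of the liver calls, 1652 were tested in muscle and 236 were called there (14.3%, beside 12.6% of all genes tested in both tissues), 158 in the same direction and 78 in the opposite one. Muscle and liver came in part from the same animals, 5 females and 4 males by library number. Of liver calls of at least 3 on the log2 scale, 81 were tested in muscle, 8 were called and 4 of these went the same way. Of the regulators higher in female liver, Esr1, Igf1r and Stat5a were also higher in female muscle, by 0.89, 0.60 and 0.43. Their edgeR adjusted p were 0.000938, 0.0138 and 0.0292. Trim24 was higher in male muscle, by 1.00 in size (edgeR adjusted p = 1.18e-05).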

How the data were processed

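The authors enriched polyadenylated RNA, mapped reads to GRCm39 with STAR 2.7.11b and counted them per gene with featureCounts 2.0.6. The deposited values are these read counts for 57010 genes in 48 libraries, without normalization. The annotation release, strandedness, and handling of pairs and of reads that map to several places are not given in the sources used here. Of counts from 1 to 100, 79% are even, so fragments may have been counted as 2 reads.

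Libraries were grouped by the labels. The filter kept genes that reached 10 reads in 20% or more of the liver libraries. Females and males were compared with the edgeR 4.0.16 quasi-likelihood test (R 4.3.3, TMM normalization, Benjamini-Hochberg adjustment over all genes tested, threshold 0.05). The 2 genotypes were fitted together for the sex by genotype term. SE is the log2 fold change divided by the root of its F value. Shares of reads were compared by exact two-sided permutation tests (Python 3.11.15, scipy 1.17.1). On simulated data with 200 of 18241 genes changed, the WT liver test recovered 87% and 3.9% of its calls were false. The changed genes were drawn from those with more reads, and none was changed by under 1 on the log2 scale. The 988 calls under 1 lie outside this setting, so its recovery does not describe them. Totals of 31332364 to 56312866 reads set the counting error.

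Gene names, start sites and transcripts came from mouse GENCODE release 39 on GRCm39, which holds 98.8% of the gene IDs. Promoters are the 250 bases before the start of the canonical transcript. A stretch counts as shared where 100 bases occur exactly in a transcript of another gene.

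Named genes are the 10 with the largest differences in each direction among called autosomal protein-coding genes with a mean log2 CPM (prior count 2) of at least 2 and no overlap, the 5 with the largest CPM differences in each direction, all members of the growth hormone and transcription factor lists, and from every other list the 2 called members with the largest differences each way. Other genes were named after their values were seen, and 4 genes that the rule or lists hold are not reported here. Members and lists were chosen with earlier results of these data known, and the lists of all P450 genes, Sult2a, Slc22a and Acot after values were seen. All 4 comparisons were also computed with DESeq2 1.42.0, with the edgeR likelihood ratio test, after RLE scaling, with the replicate number as a block, and without each library. The WT liver comparison alone was computed under 2 other filters, from halved counts, with a minimum fold of 1.5 in the null hypothesis, with the mitochondrial share as a covariate, with all 4 liver groups fitted jointly, and without a pair of females, and this comparison and the sex by genotype term with male replicate 5. Replicate numbers did not pair the libraries. Het and muscle samples were used only for comparison.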

Additional observations from a re-analysis of the deposited data

Results flagged for a closer look

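In each sex, the highest and lowest WT liver library of the 145 named genes was compared on the log2 CPM scale with the rest of its group by Dixon's test. Chance alone would mark about 1 in 20 groups, and 22 of 290 groups were marked, 6 of them in female replicate 6, the library with the lowest correlation to its group. Female replicate 1 stood apart for Cdh1 at 6.37 CPM against 15.3 to 21 CPM in the others. Female replicate 3 stood apart for Stab2 at 84.2 CPM against 54.4 to 61 CPM in the others. Female replicate 4 stood apart for Acot3 at 87 CPM against 155 to 213 CPM in the others, Cux2 at 36.4 CPM against 99.7 to 138 CPM in the others and Ppargc1a at 20.4 CPM against 13.2 to 15.4 CPM in the others. Female replicate 5 stood apart for Slco1a4 at 363 CPM against 174 to 221 CPM in the others and Ugt2b38 at 1.19 CPM against 2.99 to 4.57 CPM in the others. Female replicate 6 stood apart for Igfbp1 at 144 CPM against 44.9 to 65.2 CPM in the others, Mup11 at 0.69 CPM against 2.75 to 5.55 CPM in the others, Mup14 at 0.455 CPM against 1.33 to 1.63 CPM in the others, Ppara at 62.4 CPM against 163 to 222 CPM in the others, Rxra at 452 CPM against 517 to 551 CPM in the others and Serpina3g at 17.7 CPM against 3.42 to 6.02 CPM in the others. Male replicate 1 stood apart for Cela1 at 28.9 CPM against 13 to 15.1 CPM in the others. Male replicate 2 stood apart for Axin2 at 10.4 CPM against 4.87 to 6 CPM in the others, Cyp2a4 at 26.8 CPM against 4.84 to 5.95 CPM in the others, Cyp7a1 at 22.5 CPM against 92 to 116 CPM in the others and Tdo2 at 2680 CPM against 1733 to 1893 CPM in the others. Male replicate 3 stood apart for Cyp4a12a at 241 CPM against 450 to 523 CPM in the others and Lrat at 11.2 CPM against 14 to 14.9 CPM in the others. Male replicate 4 stood apart for Cyp3a41a at 0.219 CPM against 0.569 to 0.733 CPM in the others and Nr0b2 at 15.2 CPM against 38.2 to 54.3 CPM in the others.

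The sex difference was not the same in Het and WT livers for 49 named genes by the sex by genotype term of edgeR. The values in brackets are the Het minus the WT log2 fold change, female over male. Among genes higher in WT females they were Cyp2c69 (-2.12), Cyp3a41a (-3.32), A1bg (-7.56), Sult2a2 (-4.39), Ces1c (-0.82), Prlr (-1.05), Igfals (-0.80), Cux2 (1.91), Cyp2c40 (-1.73), Akr1d1 (-1.09), Ugt1a9 (-1.92), Ugt1a5 (-3.60), Gstm2 (-1.13), Elovl5 (-0.96), Acacb (-0.90), Hao2 (-3.53), Gckr (0.95), Agxt (-0.97), C1qc (-1.59), C1qa (-1.71), Lrat (-1.25), Reln (-1.22), Csf1r (-1.33) and Adgre1 (-3.87). Among genes higher in WT males they were Mup14 (-1.40), Nr0b2 (1.96), Cyp2c67 (-0.81), Cyp3a25 (0.97), Gstp2 (2.90), Gstp1 (1.17), Tdo2 (-0.74), Cyp27a1 (0.53), Cyp2f2 (-0.67), Clock (-1.21) and Cela1 (-1.34). Genes without a call in WT livers were Irs1 (-1.61), Sh2b1 (0.72), Insr (-0.68), Socs3 (2.00), Ghr (-0.96), Jak2 (-0.85), Rxra (-1.03), Cebpb (1.36), Cebpa (-0.66), Nr1h4 (1.07), Rora (-1.18), Ppara (-1.83), Nr1i2 (0.88) and Nr3c1 (-1.20). All genes together had a median of -0.09, which was 0.01 under RLE normalization, so values within about that distance of 0 depend on the scaling. The female Het libraries also had fewer genes with a read and more mitochondrially encoded reads than the female WT libraries, and the part of this in the values was not tested. Many of the named genes were picked for large differences in the same WT libraries, and the part of that choice was not tested either.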

How the results depend on the processing

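Of 15 counts, percentages and shares of reads, all stayed within 1.5 times their value, or on their side of the threshold for a share, except as follows. In WT liver 580 autosomal genes were called against a fold change of 1.5 (2.10% of genes tested higher in females, 1.19% in males), 1144 with all 4 liver groups in 1 fit (3.78% and 2.73%), and 363 with male replicate 5, the library with muscle transcripts, included (1.43% and 0.631%). Without a filter on low counts, which raises the number of genes tested, 4.21% were higher in females and 3.13% in males, and with a filter of 1 CPM in 5 libraries 9.76% were higher in females. Replicate numbers did not pair the libraries: deviations of same-numbered females and males correlated between -0.043 and 0.092, and 1 of 5 numbers correlated best with itself. With the replicate block 1380 genes were called, 3.16% higher in males, and in gastrocnemius 1439, with 3.55% higher in males. Leaving out each library gave 1534 (without male replicate 4) to 2350 (without female replicate 6) calls in WT liver and, in gastrocnemius, 1416 (without female replicate 5) to 2375, with 3.67% to 6.34% higher in males. Of 110 named calls 92 held in every omission, and the 18 lost in at least 1 were Agxt, Atf3, Clec4g, Cyp27a1, Cyp3a25, Cyp4a10, Cyp7a1, Dbp, Elovl5, Epcam, Esr1, Hpd, Pck1, Per3, Saa4, Serpina1a, Serpina3g and Stab2. Against a fold change of 1.5, 42 named calls were lost and 0 gained, and with all 4 liver groups in 1 fit 17 and 0. The replicate block lost 16 and gained 1, and the mitochondrial share as a covariate lost 10 and gained 2. Among gene lists, calls higher in males went from 2 to 4 in glutathione S-transferases without female replicate 4, from 2 to 4 in hepatocyte markers without male replicate 6, and from 6 to 3 in fatty acid uptake without male replicate 4, while calls higher in females went from 0 to 1 in cholesterol synthesis without female replicate 6. The likelihood ratio test called 2396 genes and DESeq2 2585.

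Signs changed in 23 named genes, most of them near 0. Igfbp4 was -0.00293 under RLE normalization, -0.00294 with DESeq2, -0.00187 without a filter on low counts, -0.00356 with the replicate block and -0.00723 without female replicates 5 and 6, whose library numbers lie apart. With the block Insr was -0.0108, Nr1h4 -0.0159, Onecut1 0.36 and Ppara -0.084. With the mitochondrial share as a covariate Igfbp1 was -0.33, Ghr 0.024, Socs1 -0.19, Rxra 0.021, Nr1h3 -0.11, Nr1h4 -0.054, Rora 0.083, Onecut1 0.13 and Nr1i2 -0.094. Without that pair of females Igfbp1 was -0.00174, Nr1h3 -0.052, Nr1h4 -0.090, Onecut1 0.16 and Nr1i2 -0.00446. With male replicate 5 Irs1 was -0.25, Igfbp2 0.20, Igf1r -0.48, Stat5b -0.49, Socs1 -0.25, Jak2 -0.45, Rxra 0.11, Hnf4a 0.13, Ppargc1a -0.25, Onecut1 0.011, Vldlr -1.43, Acacb -0.11 and Atf3 -0.92. Over the omissions of 1 library the range was -0.016 to 0.12 for Igf1, -0.070 to 0.45 for Igfbp1, -0.16 to 0.073 for Igfbp2, -0.071 to 0.046 for Igfbp4, -0.0073 to 0.11 for Insr, -0.064 to 0.063 for Nr1h3, -0.020 to 0.13 for Nr1h4, -0.029 to 0.14 for Nr1i2, -1.03 to 0.63 for Onecut1, -0.059 to 0.20 for Ppara and -0.32 to 0.54 for Socs1. None of these passed the test in WT livers except Igf1r, Ppargc1a, Vldlr, Acacb and Atf3. The cause was not tested, apart from male replicate 5, which holds muscle transcripts. Genes with few reads in 1 sex have folds limited by depth.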

Other observations

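Pericentral and periportal genes, which mark the poles of the liver lobule, were called in 3 of 11 and 3 of 12, beside 11.3% of all autosomal genes. Of the pericentral genes, Tbx3 and Axin2, a target of Wnt signalling, were higher in females by 0.86 ± 0.16 and 0.94 ± 0.22 (SE; edgeR adjusted p = 0.00168 and 0.00849), and Cyp27a1 was higher in males. Without female replicate 6, 4 pericentral genes were higher in females. The 3 periportal genes were higher in males, Cdh1, which encodes E-cadherin (-1.40 ± 0.24), Cyp2f2 (-1.07 ± 0.11) and Pck1. Cyp2f2 was at 397 to 501 CPM in females, under every male value.

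Of 16 clock genes Dbp and Per3 were higher in females, by 0.54 and 0.76, and Clock in males, by 0.77 in size, each with overlapping ranges. Over all autosomal genes 6.5% were higher in females and 4.76% in males. The Dbp call was lost in 9 of 11 omissions of 1 library and that of Per3 in 8. Of 14 immediate early genes 3 were higher in females, beside 6.5% of all autosomal genes. They were Klf6 by 1.01, Atf3 by 1.85 (lost in 4 omissions) and Ier3 by 2.19. Of 6 nuclear-retained RNAs Snhg11 was higher in males, and of 13 mitochondrially encoded genes mt-Nd4 was, by 0.45 in size. Mitochondrially encoded genes took 4.18% ± 0.911 (SD, n = 6) of reads in females and 5.13% ± 0.458 (SD, n = 5) in males (exact permutation test, two-sided, p = 0.0216, or 0.0303 adjusted over 7 measures). P450 genes took 3.67% ± 0.161 in females and 3.03% ± 0.425 in males (exact permutation test, two-sided, p = 0.0173).

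Among markers of other cells, Epcam of 8 cholangiocyte genes was higher in females, a call lost in 7 omissions. Stab2 and Clec4g of 9 endothelial genes were also higher in females, and this number was 0 without male replicate 3 or male replicate 4 and 6 without male replicate 6. Higher in males were Cidec of 6 adipocyte genes and Cela1 of 2 exocrine pancreas genes. Over all autosomal genes 6.5% were higher in females and 4.76% in males. In edgeR 0 of 10 lymphocyte markers were called (3 higher in females at an unadjusted p under 0.05, and 1 call with DESeq2 and 2 with the likelihood ratio test), 0 of 4 neutrophil markers (0 unadjusted and 0 with either other tool) and 0 of 6 autosomal erythroid markers (2 higher in females unadjusted, 0 with either other tool and 3 without male replicate 1). The X-linked erythroid gene Alas2 was higher in males, at -2.69.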
